A study of Homo sapiens with 4 samples.

Results

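The nuclear genes for the subunits of respiratory complexes I to IV and of ATP synthase (complex V) were followed in the lymphoma line RC-K8 and its derivative RC-K8-R. Members were chosen by gene symbol: every gene named NDUFA, NDUFB, NDUFC, NDUFS or NDUFV with a number, SDHA to SDHD, UQCR, COX4 to COX8 or ATP5, with a value on all 4 arrays. This gave 78 members out of 13446 genes measured on all 4. Of these, 76 encode subunits or the ATP synthase inhibitor protein, with 34 genes in complex I, 3 in complex II, 7 in complex III, 14 in complex IV and 18 in complex V. The other 2, NDUFB2-AS1 and NDUFV1-DT, are noncoding transcripts that share a name with a subunit gene and were kept apart. Genes encoded by mitochondrial DNA do not match these names and were not analysed here. The nuclear subunit genes CYC1 and NDUFAB1 do not match them either and were counted in a list of genes around the chain.

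RC-K8 is an established line of diffuse large B-cell lymphoma that answers interleukin-21 (IL-21), a cytokine of T cells, with apoptosis. RC-K8-R is 1 line obtained from it by chronic exposure to rising doses of IL-21 over 10 weeks, and whether it is clonal is not stated. Each line was studied untreated and after 6 hours with IL-21 at 100 ng/mL, which makes 4 groups of 1 array each. All cells grew in RPMI medium with serum, and the untreated RC-K8-R cells share the earlier selection with the treated ones.

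The respiratory chain sits in the inner mitochondrial membrane. Complexes I and II pass electrons from NADH and succinate to ubiquinone, complex III passes them on to cytochrome c, and complex IV hands them to oxygen. Complexes I, III and IV pump protons as they work, and ATP synthase uses the returning protons to make ATP. Most subunits are encoded in the nucleus, and complex II, which is also an enzyme of the tricarboxylic acid cycle, has no subunit from mitochondrial DNA.

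RNA was measured on 2-colour Agilent arrays, with the cells' cDNA in Cy5 and a common human reference RNA in Cy3. A value here is the log2 ratio of cells to reference after the array's median was subtracted, so 0 is the array's median and the values are called centred log2 ratios. Per array, 25246 to 26555 of 31095 probes had a value, and the SD over probes was 1.26 and 1.31 in RC-K8 and 1.52 and 1.56 in RC-K8-R. The B-cell label was checked on 7 measured markers, whose median was 0.95, 1.37, 1.73 and 2.13 on untreated RC-K8, treated RC-K8, untreated RC-K8-R and treated RC-K8-R, with single markers from -3.58 to 7.68 and 5 or 6 of 7 above 0 on each array. The 3 liver markers lay between -8.21 and -4.52. Myeloid markers had 3 of 4 above 0 on both RC-K8 arrays (medians 0.28 and 0.27) and 1 and 0 of 4 on the RC-K8-R arrays (-0.58 on both), and T and NK cell markers 2 of 5 on both RC-K8 arrays (medians -0.71 and -1.25) and 1 of 5 on both RC-K8-R arrays (-2.74 and -2.94). The part of these markers in the results was not tested. There were no replicates, so no difference between groups could be tested and no p-value is given. The number of arrays limits the precision, and the only error at hand is the SD between probes of 1 gene. In such bulk RNA, fewer cells of a kind and less RNA per cell cannot be told apart. The deposited table does not state the base of its logarithm, and a natural logarithm would leave every direction and enlarge every fold.

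The subunit genes had a median near that of the array on all 4 arrays. This median centred log2 ratio was -0.09 on untreated RC-K8, -0.03 on treated RC-K8, -0.05 on untreated RC-K8-R and -0.13 on treated RC-K8-R. Single genes ran from -1.44, for SDHA on treated RC-K8, to 1.54, for COX6B2 on the same array. These are levels relative to the reference RNA, not absolute amounts, and their order between genes also depends on how much of each gene the reference holds.

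With IL-21 in RC-K8, 51 of the 76 subunit genes were above and 25 below or at the untreated value, and the differences were small. The median log2 difference was 0.056, against -0.039 over all genes, and 67.1% of subunit genes against 45.1% of all genes were above 0. None was 2-fold different, where 3.1% of all genes were. An absolute log2 difference of 0.322 or more, used as a lower threshold beside 2-fold, was seen in 4 subunit genes, NDUFS5, NDUFS6, ATP5MC1 and SDHA, which is 5.26% of them against 32.9% of all genes. The SD over subunit genes was 0.163, against 0.418 over all genes and 0.371 over the 10427 genes in the same range of mean log2 ratio.

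In RC-K8-R the median log2 difference with IL-21 was -0.026, against 0.0035 over all genes. There 24 of 76 subunit genes, or 31.6%, were above 0, against 50.9% of all genes. No subunit gene reached the lower threshold, which 11.7% of all genes reached, and none was 2-fold different, where 0.945% of all genes were. The SD over subunit genes was 0.110 against 0.264 over all genes. The response of RC-K8-R minus that of RC-K8 had a median of -0.12, against 0.020 over all genes, and was above 0 in 18 of 76 subunit genes against 52.2% of all genes. By this difference 7 subunit genes passed the lower threshold, where 40.1% of all genes did, and none passed 2-fold, where 4.77% did. They were ATP5MC3, ATP5PF, COX6A2, COX6B2, NDUFC2, NDUFS5 and SDHA. A positive difference in RC-K8 together with a negative one in RC-K8-R was seen in 29 subunit genes, 38.2% of them, and in 21.6% of all genes.

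**Figure D1:**
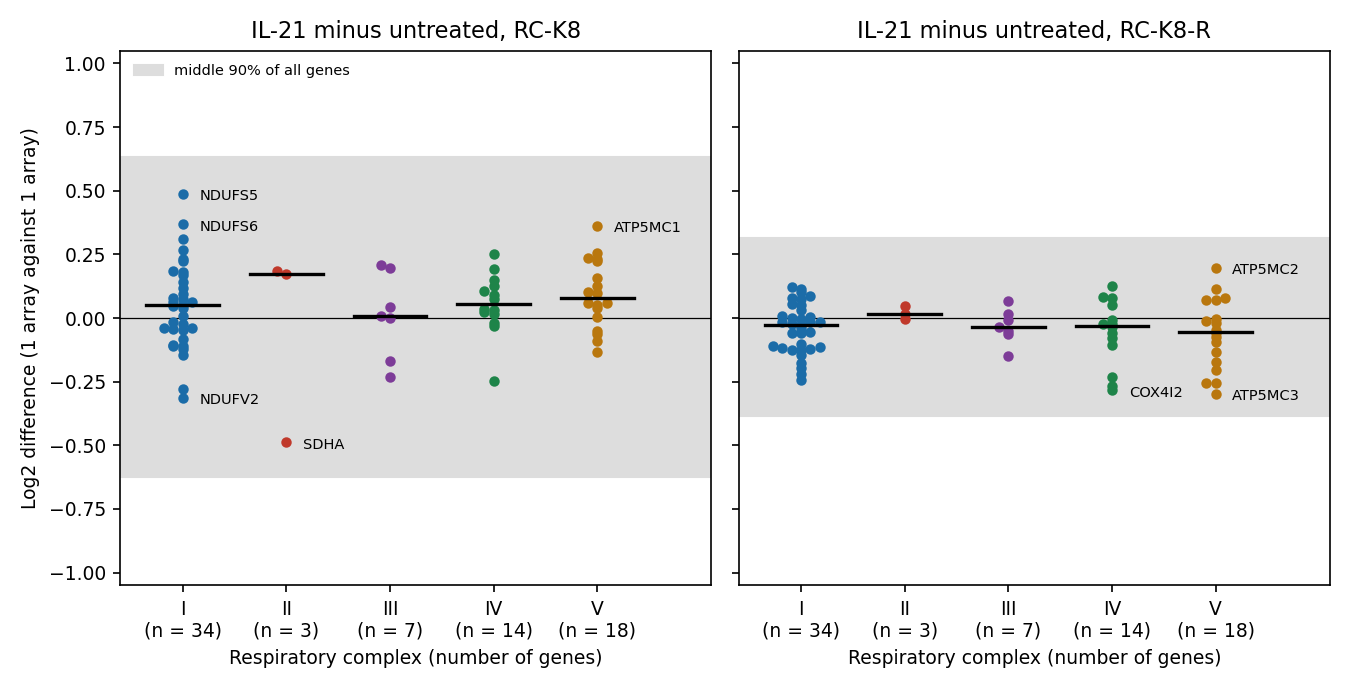
Log2 difference between the IL-21 array and the untreated array (vertical axis) of each subunit gene, by respiratory complex (horizontal axis), in RC-K8 (left) and RC-K8-R (right). Each point is 1 gene, each bar the median of a complex, and the grey band the middle 90% of all genes. All points lie between -0.49 and 0.49 on the left and between -0.30 and 0.20 on the right.

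Complex I, the NADH dehydrogenase, had a median log2 difference with IL-21 of 0.05 for RC-K8 and -0.026 for RC-K8-R over its 34 genes. NDUFS5, an accessory subunit on the intermembrane side, had centred log2 ratios of -0.57 on untreated and -0.08 on treated RC-K8, and of -0.38 and -0.31 on untreated and treated RC-K8-R. It was thus 1.40-fold higher with IL-21 in RC-K8 (log2 difference 0.49, 1 probe), and the other 3 arrays lay below treated RC-K8. NDUFS6, a zinc-binding accessory subunit, stood at -0.32 and 0.05 on untreated and treated RC-K8 and at -0.12 and -0.03 on untreated and treated RC-K8-R, with treated RC-K8 again highest. NDUFV2, an iron-sulphur core subunit, had the lowest difference of the complex in RC-K8, -0.32, at 0.91 untreated and 0.59 treated, while both RC-K8-R arrays stood at 0.84.

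NDUFC2, an accessory subunit of the membrane arm, stood at -0.92 and -0.61 on untreated and treated RC-K8 and at -0.54 and -0.68 on untreated and treated RC-K8-R. Its responses thus had opposite signs in the lines, and it gave the lowest difference of responses in the complex, -0.46 (1 probe). NDUFV2 gave the highest, 0.31. In RC-K8-R the responses of complex I ran from -0.25 for NDUFB1 to 0.12 for NDUFA10, both accessory subunits. The 6 core subunits measured, most of which hold a redox cofactor, had a median of 0.017 in RC-K8 with 3 of 6 above 0. The 28 accessory subunits had a median of 0.05 with 17 of 28 above 0. Of all genes 45.1% were above 0 in that comparison.

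Between the lines, NDUFA7, an accessory subunit of the matrix arm, was the highest of complex I. It stood at -0.01 and 0.22 on untreated and treated RC-K8 and at 0.59 and 0.66 on untreated and treated RC-K8-R, a log2 difference of 0.60 untreated and 0.45 with IL-21. Both RC-K8-R arrays lay above both RC-K8 arrays. NDUFS7, a core subunit near the ubiquinone site, was the lowest, at -0.24 and -0.33, but its 2 probes gave -0.68 and 0.20 for the untreated lines and so had opposite signs. NDUFA13, a subunit also known to bind the transcription factor STAT3, was higher in RC-K8-R by 0.39 untreated and 0.33 with IL-21.

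Complex II, succinate dehydrogenase, was measured through SDHA, SDHC and SDHD, and SDHB was not analysed here. SDHA, the flavoprotein that oxidises succinate, had centred log2 ratios of -0.95 on untreated RC-K8, -1.44 on treated RC-K8, -0.76 on untreated RC-K8-R and -0.76 on treated RC-K8-R. The treated RC-K8 array stood alone at the low end. SDHA was 1.40-fold lower with IL-21 in RC-K8, the lowest difference among the 76 genes, and its 2 probes gave -0.43 and -0.55. In RC-K8-R its difference was -0.0035, a value whose sign changed with the setting (probes -0.05 and 0.04), so the difference of responses was 0.48, the highest among the 76 genes.

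Between the treated lines SDHA was 1.61-fold higher in RC-K8-R (log2 difference 0.68, probes 0.55 and 0.81), the highest of the 76 genes there, and between the untreated lines it was higher by 0.20. SDHC and SDHD, the membrane anchors that bind ubiquinone, had positive differences with IL-21 in RC-K8, of 0.19 and 0.17, where that of SDHA was negative. SDHC stood at -0.87 and -0.69 on untreated and treated RC-K8 and at -0.25 and -0.20 on untreated and treated RC-K8-R. Both RC-K8-R arrays were higher, by 0.63 untreated and 0.49 with IL-21 (1 probe), the highest difference between the untreated lines in the whole set. All 4 probes of SDHD were higher on the treated RC-K8 array, by 0.11 to 0.46, while in RC-K8-R they ran from -0.03 to 0.29. Between the lines SDHD differed by -0.09 untreated, where its probes ran from -0.225 to 0.295 and so had both signs. With IL-21 it differed by -0.16 (probes -0.375 to -0.053). SDHA and SDHD have close pseudogene copies in the human genome, and whether the probes also bind those transcripts was not tested.

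Promoter sequences are shown for 4 genes with contrasting values: SDHA and SDHD, with opposite differences under IL-21 in RC-K8, and COX4I1 and COX6B2, with opposite differences between the lines. COX4I2, the other isoform of subunit 4, and SDHC had no promoter entry. The 4 sequences shown were thus not chosen by value alone. These sequences are from RefSeq (GRCh38.p14) and hold the 250 bases before the gene start, at chr5:218070-218319 on the plus strand for SDHA, chr11:112086623-112086872 on the plus strand for SDHD, chr16:85799445-85799694 on the plus strand for COX4I1 and chr19:55354720-55354969 on the minus strand for COX6B2. Capitals mark matches, on either strand, to the palindromic motif of nuclear respiratory factor 1 (NRF1), searched with its letters fixed, as in SDHD, and with 1 middle base free, as in SDHA, the second search including the first, or to the motif of ETS factors (CCGGAAGT). Motifs of YY1 (AAGATGGC) and the E-box bound by MYC and other factors (CACGTG) were also searched and were not in these 4.
SDHA: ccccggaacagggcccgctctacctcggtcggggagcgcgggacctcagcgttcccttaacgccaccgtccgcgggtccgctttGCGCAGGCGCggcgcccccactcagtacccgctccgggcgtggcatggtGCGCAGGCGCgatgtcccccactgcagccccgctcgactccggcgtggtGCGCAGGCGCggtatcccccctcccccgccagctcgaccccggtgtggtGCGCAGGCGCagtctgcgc
SDHD: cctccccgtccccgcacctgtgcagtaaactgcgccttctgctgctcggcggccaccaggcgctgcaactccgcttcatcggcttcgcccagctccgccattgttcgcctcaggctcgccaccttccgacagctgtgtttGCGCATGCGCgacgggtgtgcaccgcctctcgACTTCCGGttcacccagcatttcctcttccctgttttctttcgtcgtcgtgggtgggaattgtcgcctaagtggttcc
COX4I1: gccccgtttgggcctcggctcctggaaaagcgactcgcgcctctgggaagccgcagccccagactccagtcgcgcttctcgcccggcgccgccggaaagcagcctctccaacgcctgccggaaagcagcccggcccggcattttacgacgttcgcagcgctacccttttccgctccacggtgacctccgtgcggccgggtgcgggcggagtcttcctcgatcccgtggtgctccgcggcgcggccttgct
COX6B2: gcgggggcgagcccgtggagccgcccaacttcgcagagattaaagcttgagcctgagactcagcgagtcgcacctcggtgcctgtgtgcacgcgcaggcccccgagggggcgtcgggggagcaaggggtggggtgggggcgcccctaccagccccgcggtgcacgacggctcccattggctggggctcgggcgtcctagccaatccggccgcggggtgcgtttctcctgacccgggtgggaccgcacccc

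The SDHA sequence held 4 copies of the NRF1 motif with 1 free base, at positions -166, -117, -68 and -19 from the start, each 49 bases from the next. Of all 27305 promoters in the table, 14 held 4 or more copies, and SDHA was the only one among the subunit genes. SDHD held 1 copy of the fixed NRF1 motif and 1 ETS match. A promoter entry of 300 bases (250 before and 50 after the start) was found for 64 of the 76 subunit genes. The NRF1 motif with a free base was in 15 of them (23.4%, against 6.28% of all promoters), the fixed NRF1 motif in 4 (6.25% against 1.36%), the ETS motif in 10 (15.6% against 4.44%), the YY1 motif in 10 (15.6% against 3.03%) and the E-box in 7 (10.9% against 7.43%). Among the 10691 promoters of genes measured on the arrays these shares were 10.7%, 2.20%, 7.92%, 4.93% and 9.79% in the same order. A match is a string of letters and not a shown binding site.

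**Figure D2:**
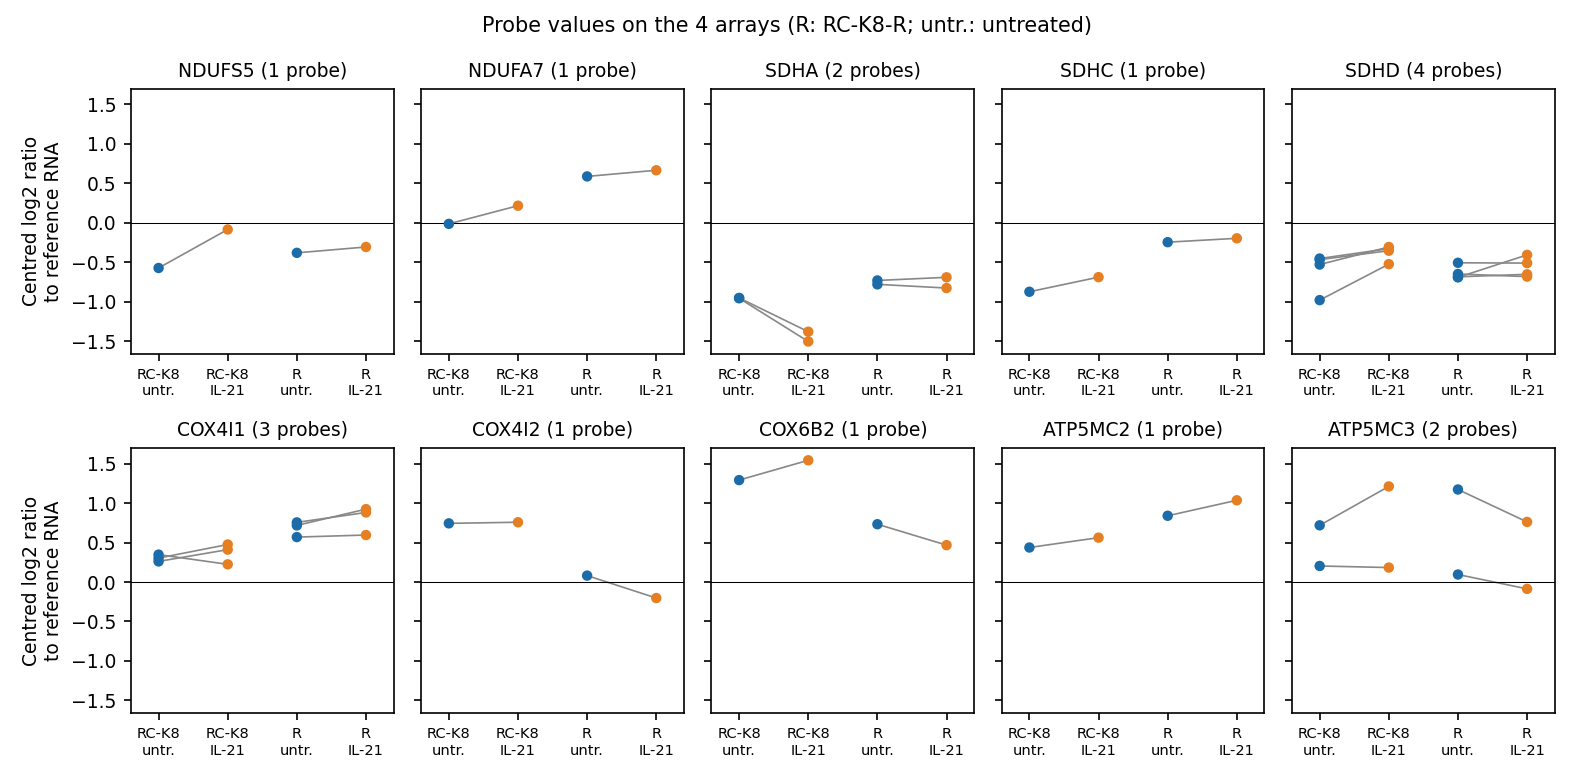
Centred log2 ratio to the reference RNA (vertical axis) of every probe of 10 named subunit genes on the 4 arrays (horizontal axis), with untreated arrays in blue and IL-21 arrays in orange. Grey lines join the values of 1 probe within a line. Both SDHA probes are lowest on treated RC-K8, and the 3 COX4I1 probes are higher and the COX4I2 and COX6B2 probes lower in RC-K8-R than in RC-K8.

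Complex III, which moves electrons from ubiquinol to cytochrome c, had medians near 0 with IL-21, at 0.0085 for RC-K8 and -0.036 for RC-K8-R over 7 genes. In RC-K8 they ran from -0.23 for UQCRC1, a core protein, to 0.21 for UQCRQ, a small membrane subunit, and these 2 genes also gave the highest and lowest difference of responses, 0.19 and -0.26. In RC-K8-R the responses ran from -0.15 for UQCRC2, the other core protein, to 0.07 for UQCRH, the hinge subunit. UQCRC1 stood at -0.54 and -0.77 on untreated and treated RC-K8 and at -0.96 and -0.99 on untreated and treated RC-K8-R, so both RC-K8-R arrays were the lower ones, by 0.41 untreated and 0.22 with IL-21. UQCRB, a ubiquinone-binding subunit, was the highest between the lines, by 0.34 untreated and 0.31 with IL-21. After quantile normalization or a loess correction its untreated difference was 0.11 or 0.05.

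Complex IV, cytochrome c oxidase, had a median difference with IL-21 of 0.055 for RC-K8 and -0.03 for RC-K8-R. Between the lines the isoforms of subunits 4 and 6B had differences of opposite sign, while both isoforms of subunit 6A were higher in RC-K8-R. The 2 isoforms that were lower, COX4I2 and COX6B2, rest on 1 probe each. COX4I1, the common form of the regulatory subunit 4, had centred log2 ratios of 0.30 and 0.41 on untreated and treated RC-K8 and of 0.72 and 0.88 on untreated and treated RC-K8-R. All 3 probes were higher in RC-K8-R, by 0.22 to 0.49 untreated and 0.37 to 0.47 with IL-21. COX4I2, the lung form known to be induced by low oxygen, stood at 0.74, 0.76, 0.08 and -0.20 on the same arrays in the same order. It was lower in RC-K8-R by 0.66 untreated and 0.96 with IL-21 on the log2 scale (1 probe).

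COX6B2, the testis form of subunit 6B, stood at 1.29, 1.54, 0.73 and 0.47 on untreated RC-K8, treated RC-K8, untreated RC-K8-R and treated RC-K8-R. Both RC-K8 arrays lay above both RC-K8-R arrays. With IL-21 it was 2.11-fold lower in RC-K8-R (log2 difference -1.08, 1 probe), the only subunit gene at 2-fold or more in any of the 5 comparisons. COX6B1, the common form, was higher in RC-K8-R by 0.18 untreated and 0.16 with IL-21.

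COX6A2, the heart and muscle form of subunit 6A, stood at -0.51 and -0.76 on untreated and treated RC-K8 and at -0.31 and -0.22 on untreated and treated RC-K8-R. It was the lowest of the complex with IL-21 in RC-K8, at -0.25, and the highest between the treated lines, at 0.54. COX6A1, the common form, was higher in RC-K8-R by 0.26 untreated and 0.20 with IL-21. COX7A2, a common form of subunit 7A, was higher by 0.41 and 0.30, and COX7A2L, which joins complexes III and IV into supercomplexes, by 0.29 and 0.19. The COX7A2L differences did not hold up against the scaling, at -0.01 and -0.12 after quantile normalization. Over the 11 genes of complex IV without the 3 tissue forms, 11 of 11 were higher in untreated RC-K8-R, with a median of 0.19, where 53.4% of all genes were, and 9 of 11 with IL-21, with a median of 0.16, where 48.5% were. These counts include COX7A2L, and some rest on small values: COX5A, COX6C and COX7A2L changed sign untreated, and COX5A, COX7A2L and COX7C with IL-21, under at least 1 other setting.

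Complex V, ATP synthase, had a median difference with IL-21 of 0.079 for RC-K8 and -0.053 for RC-K8-R over 18 genes. ATP5MC1, ATP5MC2 and ATP5MC3 encode the same mature c subunit of the rotor ring. Their IL-21 differences for RC-K8 were 0.36, 0.13 and 0.24. ATP5MC1 stood at -0.14 and 0.22 on untreated and treated RC-K8 and at -0.06 and 0.02 on untreated and treated RC-K8-R, with treated RC-K8 the highest. ATP5MC2 stood at 0.44, 0.56, 0.84 and 1.03 on the same arrays in the same order, both RC-K8-R arrays being higher, by 0.40 untreated and 0.47 with IL-21. It also had the highest response of all subunit genes in RC-K8-R, 0.20.

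ATP5MC3 had the lowest response in RC-K8-R, -0.30, and the lowest difference of responses, -0.53, but its 2 probes disagreed. One gave -0.02 for RC-K8 and -0.18 for RC-K8-R, and the other 0.49 and -0.41. The c subunit genes have pseudogene copies too, and binding of the probes to these was not tested.

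The 4 genes of the peripheral stalk, which holds the catalytic head still, were ATP5PB, ATP5PD, ATP5PF and ATP5PO. None of them was above 0 with IL-21 in RC-K8-R (median -0.19, range -0.26 to -0.0030), where 50.9% of all genes were, and 3 of 4 were in RC-K8, where 45.1% were. Both counts include values at 0 that changed sign under 3 of 9 settings, ATP5PB at -0.0030 in the first and ATP5PD at 0.0040 in the second. Between the treated lines none of the 4 stalk genes was above 0, where 48.5% of all genes were, and their median was -0.29 against -0.026. The treated RC-K8-R array enters both this comparison and the IL-21 response of RC-K8-R. ATP5PO, which links the stalk to the head, was the lowest gene of the complex with IL-21 in RC-K8, at -0.13. ATP5PB, the b subunit, was the lowest between the untreated lines, at -0.32, and was at -0.38 between the treated lines.

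ATP5ME, a small membrane subunit at the interface of paired synthases, stood at -0.07 and -0.12 on untreated and treated RC-K8 and at -0.39 and -0.64 on untreated and treated RC-K8-R. Both RC-K8-R arrays were lower, by 0.32 untreated and 0.52 with IL-21 on the log2 scale, and both probes had that sign. ATP5IF1, the inhibitor that blocks ATP hydrolysis by the synthase, stood at -0.64, -0.73, -0.33 and -0.39 on untreated RC-K8, treated RC-K8, untreated RC-K8-R and treated RC-K8-R. It was higher in RC-K8-R by 0.31 and 0.34, and its difference with IL-21 was -0.09 and -0.06. The 5 genes of the F1 head, where ATP is made, were all above 0 with IL-21 in RC-K8, from 0.04 to 0.25, against 45.1% of all genes, and 2 of 5 were in RC-K8-R, against 50.9%.

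Over all complexes, the untreated lines differed by a median of 0.098 across the subunit genes, against 0.048 over all genes, and 53 of 76 were higher in RC-K8-R (69.7% against 53.4% of all genes). With IL-21 the median was -0.00075 against -0.026, and 38 of 76 were higher (50% against 48.5%). The lower threshold was passed by 13 subunit genes untreated and 14 with IL-21, where 58.4% and 63.5% of all genes reached it. At 2-fold there were 0 and 1, where 13.5% and 17.8% of all genes were. The SD over subunit genes was 0.231 untreated and 0.296 with IL-21, against 0.681 and 0.779 over all genes. Under the 11 other settings run, which included scaling all arrays to an equal spread, the untreated median lay between 0.05 and 0.12 and the treated median between -0.03 and 0.04.

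The untreated and the treated line difference use separate arrays, and they had the same direction in 55 of 76 subunit genes (72.4% against 80.6% of all genes). Both were higher in RC-K8-R past the lower threshold in 5 genes, ATP5MC2, COX4I1, NDUFA13, NDUFA7 and SDHC (6.58% against 20.7% of all genes). The calls of NDUFA13, NDUFA7 and SDHC held under every setting run, while COX4I1 dropped to 0.27 untreated and 0.31 treated and ATP5MC2 to 0.23 and 0.31 at their lowest, under the threshold. Both were lower past it in COX4I2 and COX6B2 (2.63% against 23.6%). Across the 76 genes, which are not independent replicates, the untreated and treated line differences had Pearson's r = 0.802, against 0.783 over all genes. The IL-21 responses of the lines, also from separate arrays, had r = 0.222 across the 76 genes and 0.026 over all genes.

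**Figure D3:**
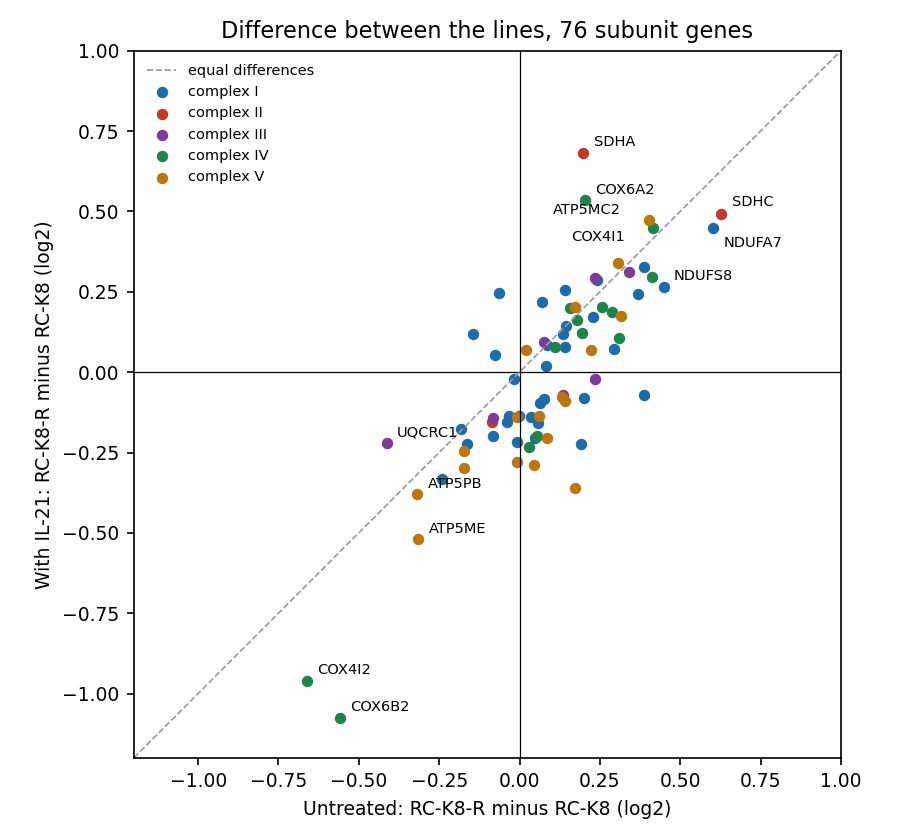
Log2 difference RC-K8-R minus RC-K8 for each of the 76 subunit genes, untreated (horizontal axis) and with IL-21 (vertical axis), coloured by complex, with a dashed line for equal differences. COX4I2 and COX6B2 stand apart at the lower left, and SDHC, NDUFA7, COX4I1 and ATP5MC2 are among those at the upper right.

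Probes of 1 gene show how far such small differences can be read. For the 24 subunit genes with 2 or more probes, the pooled SD between probes was 0.141 for IL-21 in RC-K8, 0.106 for IL-21 in RC-K8-R, 0.221 between the untreated and 0.163 between the treated lines. The SD over all 76 genes was 0.163, 0.110, 0.231 and 0.296 for the same comparisons. In the first 3 of these the genes thus differed from each other about as much as the probes of 1 gene did. Probes of both signs were seen in 13 of 24 genes for IL-21 in RC-K8 and in 10 of 24 in RC-K8-R, against 5 of 24 between the untreated and 6 of 24 between the treated lines. For the difference of responses the pooled SD between probes was 0.194, above the SD of 0.176 over the 76 genes. There 12 of 24 genes had probes of both signs. The spread between probes says nothing about the spread between cultures.

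Among genes that build and serve the complexes, some stood further from 0 with IL-21 in RC-K8 than any subunit gene. Of 54 assembly factors, 41 were above 0 (75.9% against 45.1% of all genes), with a median of 0.19 against -0.039. SCO2, which delivers copper to cytochrome c oxidase, stood at -0.72 untreated and 0.56 treated, a log2 difference of 1.28, against 0.04 in RC-K8-R. TMEM70, which helps to assemble ATP synthase, had a difference of 1.08, against -0.07 in RC-K8-R. They were the only assembly factors at 2-fold or more higher in RC-K8, a size that 1.44% of all genes reached. In the same comparison no subunit gene was past 0.49.

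A list of 25 genes held electron and nucleotide carriers with channels and enzymes around the chain, many of them of ubiquinone synthesis. Of these, 18 were above 0 with IL-21 in RC-K8 (72% against 45.1% of all genes), with a median of 0.19. The list included CYC1 and NDUFAB1, subunits of complexes III and I that the symbol rule does not match, at 0.19 and 0.28. COQ2, a prenyltransferase of ubiquinone synthesis, was 2.37-fold higher, and DHODH, which passes electrons from pyrimidine synthesis to ubiquinone, 2.31-fold higher (1 probe each), a size that 1.44% of all genes reached. CYCS, cytochrome c itself, was higher by 0.65 on the log2 scale with an SD of 0.46 between its 2 probes, and was named after its values were seen. In RC-K8-R the log2 differences of COQ2, DHODH and CYCS were -0.10, 0.40 and -0.01. GPD2, which feeds electrons from glycerol phosphate to ubiquinone, had its 1 probe at -1.80, -1.80, -1.59 and -4.91 on untreated RC-K8, treated RC-K8, untreated RC-K8-R and treated RC-K8-R, so only treated RC-K8-R was low.

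Mitochondrial protein import had the highest median of the 5 lists in RC-K8, 0.41, with 21 of 25 genes above 0 (84% against 45.1% of all genes) and none at 2-fold, where 3.1% of all genes were. Its highest were GRPEL1, a cofactor of the matrix chaperone HSP70, at 0.88, and TOMM5, of the outer membrane translocase, at 0.84, and its lowest were OXA1L at -0.17 and TIMM17A at -0.13. Of 14 genes for biogenesis regulators and mitochondrial transcription, 12 were above 0 (85.7% against the same 45.1%), with a median of 0.39. TWNK, the helicase of mitochondrial DNA, was higher by 1.43 with an SD of 0.12 between 2 probes. MYC, which activates genes of growth and metabolism, was higher by 3.02 with an SD of 2.03 between 3 probes.

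The tricarboxylic acid cycle list, which feeds the chain with NADH and succinate, had a median of -0.07 in RC-K8 with 8 of 22 above 0 (36.4% against 45.1% of all genes). Its gene past 2-fold, where 3.1% of all genes were, was PDK2, a kinase that inhibits pyruvate dehydrogenase, at -1.22, with a value of -0.15 in RC-K8-R. In RC-K8-R the medians of the 5 lists lay between -0.048 and 0.036, and GPD2 was the only gene of the lists at 2-fold, a size that 0.945% of all genes reached.

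**Figure D4:**
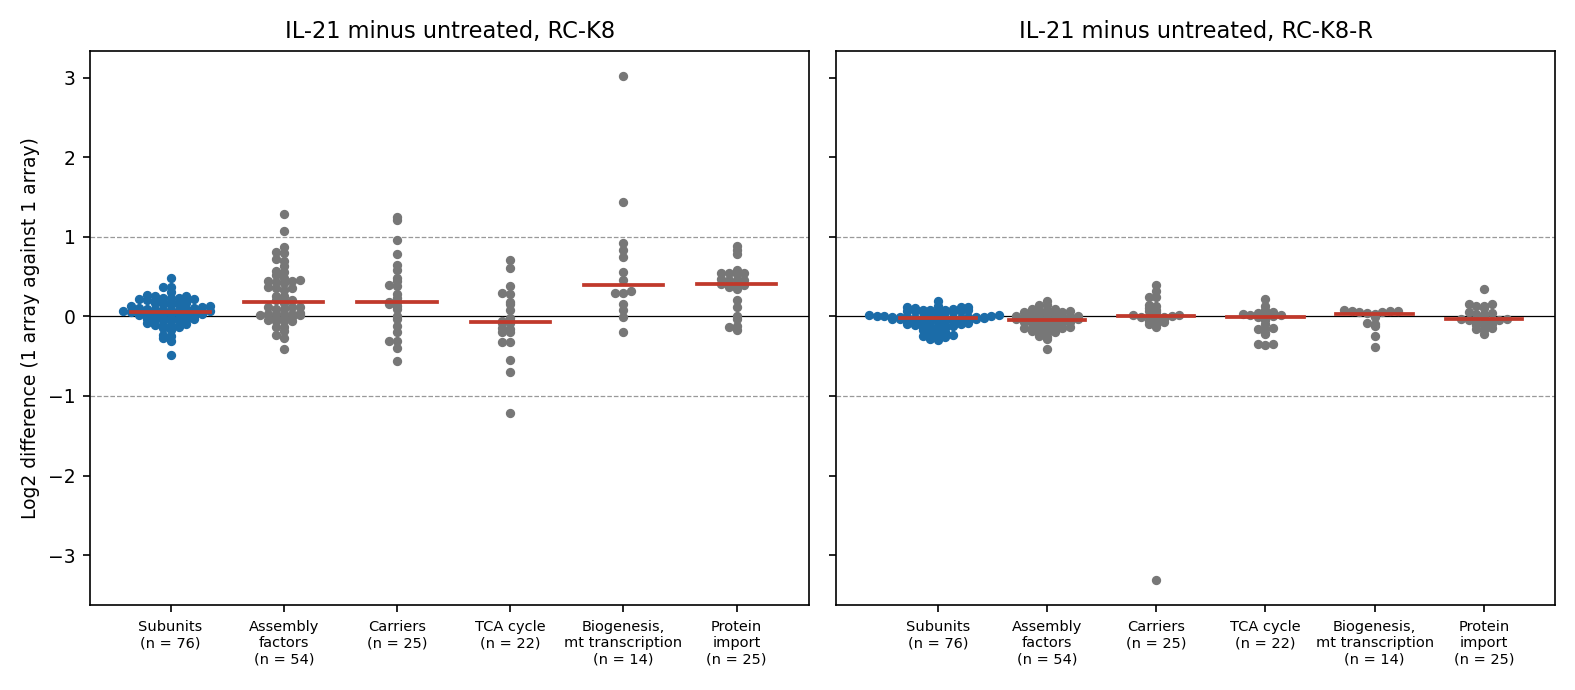
Log2 difference between the IL-21 and the untreated array (vertical axis) for the subunit genes (blue) and the genes of 5 lists around the chain (grey), in RC-K8 (left) and RC-K8-R (right), with 1 point per gene. Red bars are medians and dashed lines mark 2-fold. The subunit genes sit closer to 0 than most lists in RC-K8, and the isolated low point on the right is GPD2 at -3.31.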

How the data were processed

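Array values of 4 samples, 1 per group, were analysed. The deposited table holds a log ratio for each probe on each array, read here as log2 of sample (Cy5, per the labels) over common reference (Cy3). It does not state its log base, centring or direction, and of the authors' background correction, normalization and spot filter the sources used here say nothing. The direction follows the dyes in the labels. GEO's platform annotation gave 1 symbol for 25570 of 31095 probes, several for 28 (unused) and did not list 5497. By Entrez number, 25541 matched RefSeq.

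From each array its median over the 23260 probes valued on all 4 arrays was subtracted. Differences were taken probe by probe and summarised by the median over a gene's probes. With 1 array per group no test was possible, and genes were counted at 2-fold, with lower thresholds of 0.322 and 0.585 on the log2 scale beside it. The 5 comparisons were treated minus untreated RC-K8, treated minus untreated RC-K8-R, the second minus the first, and RC-K8-R minus RC-K8 for the untreated and for the treated arrays. Named genes were, per comparison, members at 2-fold or more, the highest and lowest member of each complex, the isoforms of subunits 4, 6A and 7A and of the c ring, and ATP5IF1; from the lists, genes at 2-fold or more, otherwise the highest and lowest 2. NDUFS6, NDUFA13 and COX6B1 were named in addition, after their values were seen. Members and lists were chosen with earlier results of these data known.

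Alternatives were no centring, quantile normalization, equal median absolute deviation, loess (span 0.3), other probe summaries and filters, other member sets and other folds. Counting the noncoding transcripts was added after seeing the data. Centring, quantile normalization, loess and the summary per gene were checked on simulated data for IL-21 in RC-K8. The planted changes were larger than any subunit difference, so small differences were not checked, and neither was the motif search. Python 3.11.15, pandas 2.3.3, numpy 2.4.6, scipy 1.17.1, statsmodels 0.14.6 and matplotlib 3.10.9 were used. List genes without a value on all 4 arrays were not analysed here.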

Additional observations from a re-analysis of the deposited data

Results flagged for a closer look

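In 4 subunit genes, each with 1 probe, IL-21 gave differences of opposite sign in the lines and the responses differed by 0.322 or more on the log2 scale. Opposite signs with a smaller difference, or with probes that disagreed, as in ATP5MC3, are not included. A gene with 1 probe could not be left out on that last ground, so the rule favours such genes. With 1 array per group the difference of responses was not tested. Its pooled SD between probes, in the subunit genes with 2 or more, was 0.194. ATP5PF, a peripheral stalk subunit of ATP synthase, was higher with IL-21 by 0.16 in RC-K8 and had a log2 difference of -0.17 in RC-K8-R, so that the responses differed by -0.33. COX6B2, the testis form of subunit 6B of complex IV, had 0.25 and -0.27, and the responses differed by -0.52. NDUFC2, an accessory subunit of complex I, had 0.31 and -0.15, and the responses differed by -0.46. COX6A2, the heart and muscle form of subunit 6A, ran the other way, with -0.25 and 0.08, and the responses differed by 0.33. Whatever the signs, an absolute difference of responses of that size was seen in 40.1% of all genes and 7 of the 76 subunit genes. The share of all genes that met the whole rule, with opposite signs as well, was not counted. Whether 4 of 76 is more or fewer than among all genes was thus not tested.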

How the results depend on the processing

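Of the medians by complex and over all subunit genes, 302 values under an alternative differed from the reported one by less than the pooled SD between probes and 3 by more. That SD is one of single genes and larger than most of these medians. A median could thus change sign within it, and the count does not show that the medians held. The 3 past it were complex II with only the genes of 2 or more probes, which leaves out SDHC: -0.16 for IL-21 in RC-K8, 0.15 for the difference of responses and 0.26 between the treated lines. The first and second of these also changed sign, from 0.17 and -0.14. Medians near 0 changed sign under some settings: complexes I and III for IL-21 in RC-K8, complex III for IL-21 in RC-K8-R, and all subunit genes, complex I and complex III between the treated lines. Of the counts of subunit genes under another setting or at another fold, 55 equalled the reported count at 2-fold and 10 did not. The reported count was 0 except between the treated lines, and counts at a lower threshold can differ from it by the threshold alone. The 55 and 10 thus do not measure how far the counts depend on the processing. At a log2 difference of 0.322 the counts were 4 for IL-21 in RC-K8, 0 in RC-K8-R, 7 for the difference of responses, 13 between the untreated and 14 between the treated lines, and at 0.585 they were 3 and 3 between the lines. Between the treated lines the count at 2-fold, reported as 1, was 2 after quantile normalization, 2 after loess, 0 with only genes of 2 or more probes and 0 without the tissue forms. Every gene past 0.322 kept its sign under every setting run, but not always its place past that size. ATP5MC3 read from its probe of highest mean ratio gave 0.49 for RC-K8 and -0.41 for RC-K8-R. COX6B2 was at -1.31 after quantile normalization between the treated lines. Counting NDUFA4 with complex I was not run, as NDUFA4 was not analysed here. No paired analysis was possible because every group has 1 array. No spot intensities were used, so signal over background is unknown, and 52 of 76 genes rest on 1 probe.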

Other observations

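The noncoding transcripts that share a name with a subunit gene had values of their own. NDUFB2-AS1, an antisense transcript, had centred log2 ratios of 0.58 and 0.49 on untreated and treated RC-K8 and of -0.14 and -0.12 on untreated and treated RC-K8-R. It was lower in RC-K8-R by 0.72 untreated and 0.61 with IL-21 on the log2 scale, and both probes had that sign. NDUFB2 itself differed by -0.01 and -0.22. NDUFV1-DT, a divergent transcript, stood at 0.54 and 0.22 in RC-K8 and at 0.72 and 1.03 in RC-K8-R (untreated and treated, 1 probe), so that its IL-21 differences were -0.33 and 0.31. NDUFV1 itself had 0.12 and 0.06.

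Genes matching the rule but blank on an array were left out. NDUFC1, a complex I subunit, was blank on untreated RC-K8 and stood at -0.55 on treated RC-K8, -0.25 on untreated RC-K8-R and -0.56 on treated RC-K8-R. COX7B2, a testis form, was blank on all 4 arrays, and NDUFA6-DT was blank on treated RC-K8. A further probe of UQCR10, a small subunit of complex III, was blank on treated RC-K8-R, and gave 0.15 for IL-21 in RC-K8 where the probe used gave 0.

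Between the treated lines 12 of the 140 measured genes of the lists differed by 2-fold or more (8.57% against 17.8% of all genes), 10 lower and 2 higher in RC-K8-R. The lowest were GPD2 at -3.11 (1 probe) and MYC at -2.64, with an SD of 1.27 between its 3 probes. The others lower were COA6, NDUFAF8, PDK4, TWNK and the 4 that follow. TMEM70 was lower by 1.40 on the log2 scale, PDSS1, of ubiquinone synthesis, by 1.16, TFB2M, of mitochondrial transcription, by 1.16 and TIMM8B, of protein import, by 1.17. The untreated lines differed by -0.25, -0.16, -0.21 and -0.43 in these genes. The 2 higher were PDK2, by 1.37 with IL-21 and 0.31 untreated, and OGDH. OGDH, an enzyme of the tricarboxylic acid cycle, was higher in RC-K8-R by 1.16 with IL-21 and 0.82 untreated. The SD between its 3 probes was 0.71 with IL-21 and 0.75 untreated.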
